A study of Mus musculus with 4 samples.

Results

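Mixed lineage kinases are protein kinases of the MAP kinase kinase kinase tier. The members are the 5 genes Map3k9, Map3k10, Map3k11, Map3k12 and Map3k13, of 22911 genes named on the array. A probe was taken as a member's when its transcript accession mapped to that gene in the RefSeq table, which gave 8 of 56605 probes. The family was singled out with the difference at a Map3k10 probe already known, so every member value between the groups is a description and carries no test.

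The samples were Cy3-labelled total RNA of the dorsal hippocampus. It was taken from female mice once behavioural testing was finished. There were 2 arrays of the 20-fold iodine group and 2 of the control group, numbered 2 and 3 in each. The labels give no strain, age, duration of intake or genotype, do not define the intake that 20-fold refers to, and do not state whether an array stands for 1 animal or a pool. The spread between arrays may therefore be technical.

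Mixed lineage kinases phosphorylate the MAP2Ks that switch on c-Jun N-terminal kinase (JNK) and p38. Map3k9, Map3k10 and Map3k11 encode MLK1, MLK2 and MLK3, which bind the active GTPases Rac and Cdc42. Map3k12 and Map3k13 encode DLK and LZK, which in neurons relay axonal damage and cytoskeletal stress to JNK and to the transcription factor c-Jun. Scaffold proteins of the JIP group hold these kinases together with MAP2Ks and JNK.

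RefSeq promoter windows (build GRCm38.p6) were found for all 5 genes, 6 windows in total because Map3k12 has several start sites. Each window spans 250 bases before to 50 bases after the start. The stretch upstream of Map3k10, on the minus strand at chr7:27674582-27674831, is shown because Map3k10 is the member with the widest range of values over the arrays. The stretches of Map3k12, on the minus strand at chr15:102517198-102517227 and chr15:102510864-102510893, are shown because they hold the AGGTCA letters that thyroid hormone receptors recognise, and iodine is the raw material of thyroid hormone. Capitals mark a match to the AP-1 motif TGANTCA in Map3k10 and to AGGTCA in Map3k12. AP-1 is the dimer that c-Jun forms at the end of the JNK cascade.
Map3k10: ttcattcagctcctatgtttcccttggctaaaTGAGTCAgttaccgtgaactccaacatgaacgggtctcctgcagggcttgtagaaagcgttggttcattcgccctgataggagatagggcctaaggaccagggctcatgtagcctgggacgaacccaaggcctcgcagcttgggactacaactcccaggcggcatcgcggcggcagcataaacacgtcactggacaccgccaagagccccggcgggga
Map3k12, first window: aatctgtaagacAGGTCAcaaggggatcct
Map3k12, other window: tatagcctgcccAGGTCAggggcgggctcc

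The TGANTCA match lies at -218 from the Map3k10 start. It was present in 1 of the 6 member windows, and 7.81% of the 32851 RefSeq windows hold that motif on either strand. The AGGTCA matches lie at -211 and -181 from the Map3k12 starts. They were present in 2 of the 6 windows, both of Map3k12, and 16.3% of all windows hold these letters. In all, 9 motifs were searched on both strands. TGACGTCA, TATAAA and the NRF1 motif occurred in 0 of the 6 windows, CACGTG and CCAAT in 1 each, and GGGCGG and TGACG in 3 each. Among all windows they occurred in 1.79%, 13.6%, 0.971%, 7.15%, 37.4%, 35.7% and 20.8%, in the same order. TGACG is part of TGACGTCA. A match to letters is a description of the window and says nothing about binding.

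The arrays were alike in quality. On each array 37535 to 37921 probes were well above background, and Pearson's r between arrays over 16793 genes (genes are not independent replicates) was 0.994 to 0.996. All 10 hippocampal neuron markers, among them Prox1 of dentate granule cells and Wfs1 of CA1 pyramidal cells, were well above background on all 4 arrays. Choroid plexus genes stood apart on 20-fold iodine replicate 2, with a summed signal of 7942 against 40720 on 20-fold iodine replicate 3 and 24520 and 21730 in controls. The summed meningeal genes were also lowest there, at 2218 against 3862 on 20-fold iodine replicate 3 and 3409 and 4129 in controls. Col1a1 was the exception, lowest on control replicate 2. The summed thalamus and habenula genes stood highest on 20-fold iodine replicate 3, at 1070 against 679 on 20-fold iodine replicate 2 and 671 and 666 in controls. Tac2 was the exception, lowest on 20-fold iodine replicate 3. The arrays lay on 1 slide read in 1 scan, with the iodine samples in slide columns 3 and 4 and the controls in columns 1 and 2, so slide position and group cannot be told apart.

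All 8 member probes were well above background on all 4 arrays, and none was saturated or marked as an outlier. Each had 1 spot per array. Signals below are log2 processed signals scaled to each array's 75th percentile, and a difference is 20-fold iodine minus control with the standard error (SE) of the limma fit over all 38228 kept probes. Levels of different probes are not comparable, because each probe has its own brightness.

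Map3k10, which encodes MLK2, a kinase abundant in brain that binds the JIP scaffolds and kinesin motors, gave the widest differences of the family, and its 3 probes did not agree. All 3 carry the same transcript accession, NM_001290528, and the array files hold neither their sequences nor their positions in the transcript. The brightest probe, A_52_P301591, had log2 signals of 9.48 and 9.72 on the 20-fold iodine arrays, against 10.66 and 10.59 on the control arrays. Both iodine arrays lay below both controls, and the gap between the groups, 0.87, was wider than the gap between replicates, 0.24 in iodine and 0.07 in control. The difference was -1.02 ± 0.12 (SE, n = 2 per group), so the signal in controls was 2.03-fold that in iodine. On the linear scale, before scaling, the probe read 705 and 803 in iodine and 1690 and 1564 in control. The scanner software's own error estimate was 10% of the signal on each array, as at the Map3k12 probe. It does not measure the spread between samples.

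The next probe of Map3k10, A_66_P103533, ran the other way. Its log2 signals were 7.80 and 7.74 in 20-fold iodine and 7.51 and 7.37 in control, without overlap. The difference was 0.33 ± 0.09 (SE), a 1.26-fold higher signal in iodine. The dimmest probe, A_55_P2793877, had 5.06 and 5.14 in 20-fold iodine and 4.98 and 4.97 in control, a difference of 0.12 ± 0.08. Its groups were apart only after scaling, since the unscaled signals of 32.9 and 33.5 in iodine and 33.1 and 31.8 in control overlapped. In the tissue as a whole, fewer cells that make a transcript and less of it per cell cannot be told apart.

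**Figure D1:**
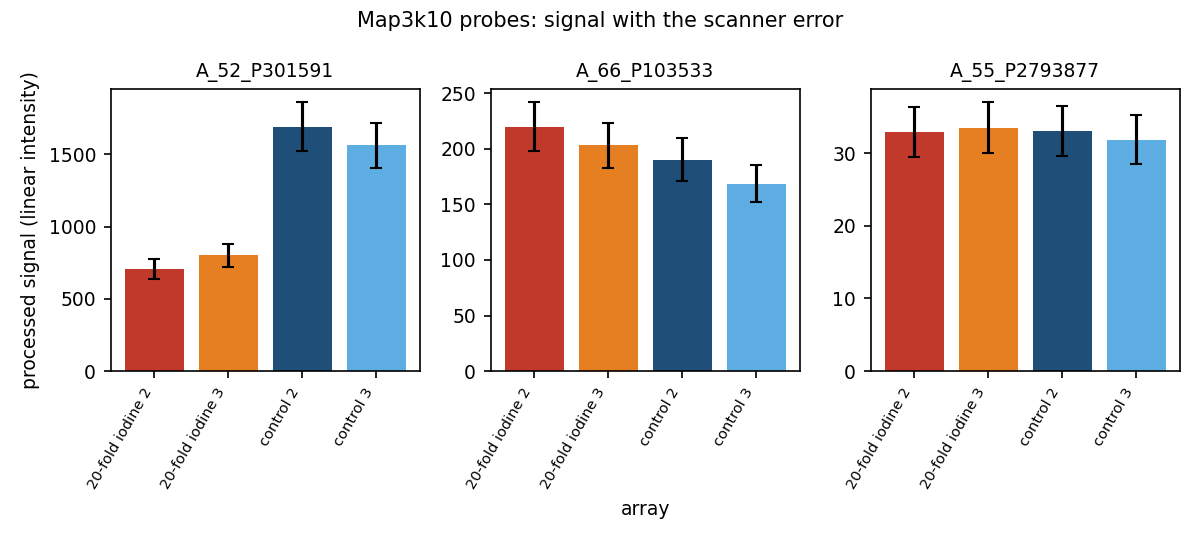
Processed signal of the 3 Map3k10 probes (linear intensity before scaling, vertical axes starting at 0) on the 2 arrays of 20-fold iodine and the 2 control arrays, with the scanner software's error as bars. A_52_P301591 read 705 and 803 in iodine and 1690 and 1564 in control, while the other probes were level or slightly brighter in iodine.

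Which probe represents Map3k10 sets the sign of its value. Averaged over its 3 probes, Map3k10 had log2 signals of 7.45 and 7.53 in 20-fold iodine and 7.71 and 7.64 in control, a difference of -0.19. The spread between the highest and the lowest probe difference was 1.35 for Map3k10. Over the 6092 genes with several kept probes the median of that spread was 0.14 and the 90th percentile 0.42, and 3 genes had a wider spread than Map3k10. Probes of opposite sign were found in 47.7% of those genes, so a disagreement in sign was common. A probe higher and another lower without overlap were found in 9.78%, and with a spread of at least 1 as well in 11 genes (0.181%), Map3k10 among them. Nothing is read from the rank of Map3k10, since the family was chosen with a difference at 1 of its probes already known. The spread was also not adjusted for the number of probes of a gene.

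**Figure D2:**
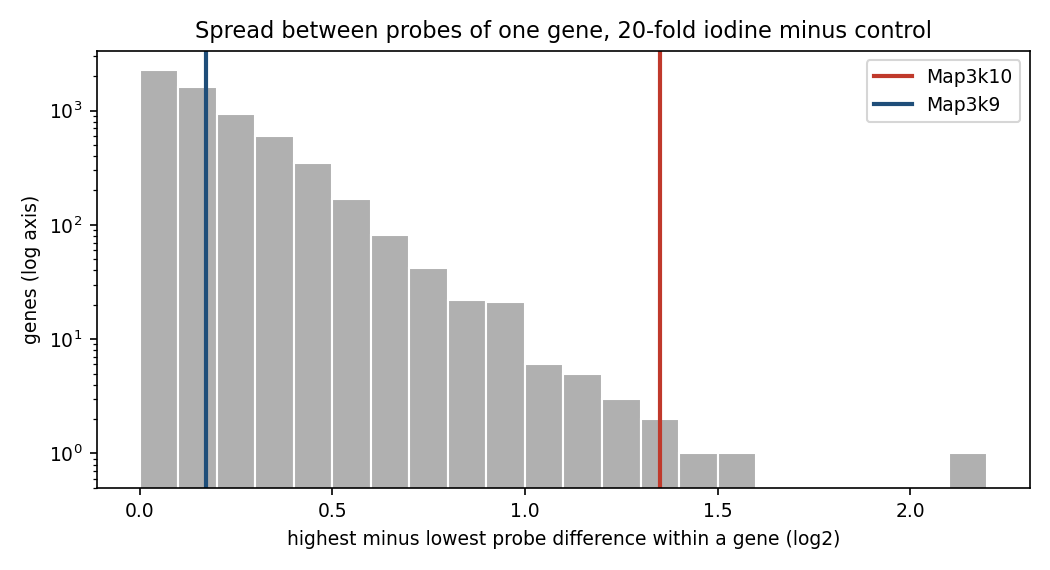
Histogram of the spread between the highest and the lowest probe difference (log2, 20-fold iodine minus control) within each of 6092 genes with several kept probes, with the number of genes on a log axis. Map3k10 stands at 1.35 in the sparse right tail and Map3k9 at 0.17, near the median of 0.14. The family was chosen with a Map3k10 probe difference already known, so the place of Map3k10 is a description.

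Map3k9, which encodes MLK1, had 2 probes, each naming a transcript of its own. A_55_P2850405 (NM_001174107) had log2 signals of 8.48 and 8.45 in 20-fold iodine and 8.67 and 8.42 in control. The iodine values lay within the control range, and the difference was -0.08 ± 0.12 (SE). A_51_P300867 (NM_177395) was the dimmest member probe, with an error estimate from the scanner software of 15.3 to 18.0% of its signal. It had 2.76 and 2.89 in 20-fold iodine and 2.88 and 2.59 in control, a difference of 0.09 ± 0.13. The probes differed in sign, but both differences were smaller than their SE and the groups overlapped at both probes. Averaged over both probes the difference was 0.01.

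Map3k11, which encodes MLK3, an activator of JNK that cells use in many tissues, had 1 probe, A_52_P56634 (NM_022012). Its log2 signals were 6.90 and 6.95 in 20-fold iodine and 6.73 and 6.82 in control. The groups did not overlap, with a gap of 0.08, and the difference was 0.15 ± 0.09 (SE). That gap was narrower than the gap of 0.10 between the control replicates.

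Map3k12 and Map3k13, the axon injury kinases DLK and LZK, had 1 probe each. The Map3k12 probe A_51_P377789 (NM_009582) had 10.51 and 10.39 in 20-fold iodine and 10.42 and 10.37 in control. The groups overlapped, with a difference of 0.05 ± 0.09 (SE). The Map3k13 probe A_66_P130958 (NM_172821) had 5.57 and 5.68 in 20-fold iodine and 5.50 and 5.51 in control. Both iodine arrays lay above both controls by a gap of 0.05, narrower than the gap of 0.12 between the iodine replicates, and the difference was 0.12 ± 0.09. The unscaled signals of 46.7 and 48.8 in iodine and 47.3 and 46.3 in control overlapped, so these groups too were apart only after scaling. In the annotation Map3k12 overlaps Pcbp2 and Tarbp2, Map3k11 overlaps Pcnx3, and Map3k13 overlaps 3 noncoding or pseudogene loci. Map3k9 and Map3k10 overlap 0 other genes.

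**Figure D3:**
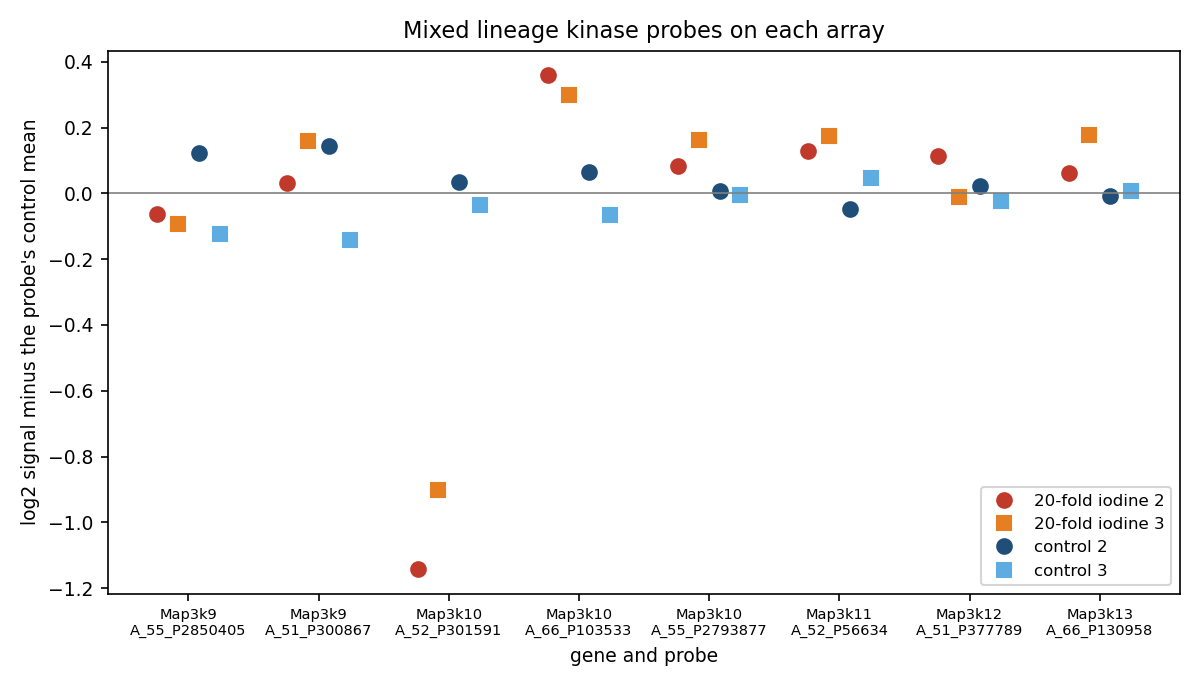
Log2 signal of each of the 8 member probes on each array, minus that probe's mean over the 2 control arrays, with 20-fold iodine arrays in red and orange left of control arrays in blue. A_52_P301591 of Map3k10 lies about 1 log2 unit below its controls on both iodine arrays, and the other 7 probes have absolute differences of 0.05 to 0.33.

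Across the family the groups did not overlap at 5 of 8 probes, 4 higher and 1 lower in 20-fold iodine. Over all 38228 kept probes 41.6% did not overlap, 23.2% higher and 18.4% lower. At 1 of 8 member probes, A_52_P301591, the groups were also at least 1.5-fold apart, lower in iodine, against 0.976% of all kept probes. Nothing is read from these counts, since the family was chosen on this contrast. By limma with Benjamini-Hochberg adjustment, 0 of 38228 probes and 0 of 16793 genes (0% of each) passed an adjusted p of 0.05. At an unadjusted p under 0.05 there were 3451 probes (9.03%) and 1239 genes (7.38%).

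Of the cell type markers, pituitary hormone genes also separated the groups as Map3k10 A_52_P301591 did, in the opposite direction. Of the 5 genes listed, 4 could be tested (Gh, Prl, Pomc and Cga), and all 4 were brighter on both iodine arrays than on either control, with summed signals of 2252 and 1642 in 20-fold iodine against 516 and 1069 in control, and Tshb was not well above background on enough arrays. Of the oligodendrocyte markers 3 of 5 (Mbp, Mag and Cnp) were brighter without overlap, with summed signals of 25930 and 24980 in iodine and 24550 and 24360 in control. Mbp had 0.31 by its brightest probe, with other probes at -0.13 and 0.20. Of the astrocyte markers 2 of 5 were higher and 3 of 5 lower without overlap, and of the endothelial markers 3 of 5 higher and 1 of 5 lower, while the summed signals of both lists overlapped between the groups. Of the thalamus and habenula markers 1 of 5 was higher and 0 of 5 lower without overlap. The higher gene was Prkcd at 0.70 ± 0.30 (SE), with other probes at 0.75 and 0.81. Without 20-fold iodine replicate 3 the Prkcd difference was 0.28. Over all genes 17.9% were higher and 21.9% lower without overlap. The summed hippocampal neuron markers were 12700 and 10490 in iodine and 10960 and 11810 in control, and overlapped. The part of other cell types in the Map3k10 values was not tested.

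The rest of the cascade was described with lists of 68 genes in 9 groups, of which 67 could be tested, each gene by its brightest kept probe. By limma 0 of 67 passed an adjusted p of 0.05 over all genes (smallest adjusted p = 0.668), and 5 had an unadjusted p under 0.05. The groups' arrays did not overlap in 14 higher and 14 lower genes, 41.8% of those tested, against 39.9% of all 16793 genes. None of the 67 was at least 1.5-fold apart without overlap, against 1.56% of all genes. The median difference over the 67 genes was -0.03, against -0.01 over all genes. Of the 67, 33 had several kept probes, and in 18 of these (54.5%) the probes differed in sign, against 47.7% of all genes with several kept probes.

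The remaining mixed lineage kinase genes were both slightly brighter in iodine. Map3k20, which encodes ZAK, a sensor of stalled ribosomes, had log2 signals of 3.35 and 3.27 in 20-fold iodine and 3.03 and 2.97 in control, a difference of 0.31 ± 0.08 (SE), and its other probe gave 0.38. Map3k21, which encodes MLK4, was brighter without overlap, a difference of 0.15 ± 0.07. Both genes were dim but well above background on all 4 arrays, and their adjusted p by limma was 0.668 and 0.730.

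The other 14 MAP3K genes had a median difference of -0.04, with 4 higher and 10 lower in sign and 0 past the adjusted threshold. The median over all genes was -0.01, and the share of all genes lower in sign was not counted. Map3k15, a relative of ASK1, was highest at 0.42 ± 0.09 (SE). Map3k6, another relative, was lowest at -0.38 ± 0.22, with 6.17 and 6.48 in 20-fold iodine and 6.96 and 6.46 in control. Without control replicate 2 the Map3k6 difference was -0.13, and without control replicate 3 it was -0.64. Map3k5, which encodes ASK1 itself, had -0.01 ± 0.14, with another probe at 0.07. Map3k7, which encodes TAK1, had -0.04 ± 0.09, with other probes at 0.10 and 0.37.

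Upstream of the family, 9 GTPase and MAP4K genes had a median difference of 0.00. Rac1, which binds and opens MLK proteins, had 10.25 and 10.23 in 20-fold iodine and 10.23 and 10.25 in control, a difference of 0.00 ± 0.07 (SE). By the brightest probe Cdc42, the other activating GTPase, was lowest at -0.12 ± 0.08, and Map4k4 was highest at 0.10 ± 0.09. Other probes went further, with 0.24 for Map4k4 and, for the MAP4K genes Mink1 and Tnik, up to 0.42 and down to -0.17.

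Downstream, the JNK and p38 kinase kinases were split. Map2k7, an activator of JNK, had a difference of 0.15 ± 0.08 (SE) and Map2k6, an activator of p38, 0.14 ± 0.09. Map2k4, which acts on JNK and p38, had -0.13 ± 0.10, with another probe at 0.27. Map2k3, an activator of p38, had 7.39 and 7.34 in 20-fold iodine and 7.56 and 7.67 in control, a difference of -0.25 ± 0.08, with another probe at 0.05. Of the 4 genes, 3 had several probes.

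The JNK genes Mapk8, Mapk9 and Mapk10 had differences of -0.16 ± 0.11, -0.11 ± 0.08 and -0.02 ± 0.09 (SE). Mapk9 had another probe at 0.33. The p38 genes Mapk11, Mapk12, Mapk13 and Mapk14 had 0.14 ± 0.10, -0.14 ± 0.10, 0.23 ± 0.28 and 0.01 ± 0.08. Mapk14 had another probe at 0.50, so its probes did not agree. Mapk13 changed sign without 20-fold iodine replicate 3, to -0.08, and without control replicate 3, to -0.01. In this group of 7, 0 were higher and 2 were lower without overlap, against 17.9% higher and 21.9% lower of all genes.

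Among the scaffolds, Mapk8ip1, Mapk8ip2 and Mapk8ip3, which encode the JIP proteins that bind MLK2 and DLK, had differences of 0.08 ± 0.11, 0.14 ± 0.08 and 0.10 ± 0.08 (SE). Mapk8ip3 had another probe at 0.33. Sh3rf1, which encodes the scaffold POSH, had 0.09 ± 0.15, and Spag9, which encodes JIP4, -0.15 ± 0.09 with another probe at 0.07. Among regulators of DLK protein turnover, the ubiquitin ligase genes Mycbp2 and Fbxo45 had -0.06 ± 0.10 and 0.03 ± 0.11. Usp9x, which encodes a deubiquitinase that protects DLK, had 8.16 and 7.98 in 20-fold iodine and 7.75 and 7.75 in control, a difference of 0.31 ± 0.09 (limma adjusted p = 0.668). The chaperone genes Hsp90aa1 and Hsp90ab1 had -0.06 ± 0.10 and -0.03 ± 0.13.

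MAP kinase phosphatase genes, which switch JNK and p38 off, had a median difference of 0.09 over 6 genes. Dusp1, an early response gene, had 8.16 and 8.20 in 20-fold iodine and 8.59 and 8.37 in control, a difference of -0.30 ± 0.10 (SE). Without control replicate 2 it was -0.19. Dusp4 had 0.16 ± 0.09, Dusp2 0.13 ± 0.14, Dusp8 0.09 ± 0.08, Dusp16 0.08 ± 0.07 and Dusp10 -0.13 ± 0.11.

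Of 16 genes listed as targets of JNK or DLK signalling, 15 could be tested, with a median difference of -0.07, against -0.01 over all genes. By the brightest probe 2 were higher and 13 lower in sign, and 0 passed the adjusted threshold. The share of all genes lower in sign was not counted, so nothing is read from those signs. Other probes were higher for Junb, Jund, Atf2, Sox11 and Hrk (0.00 to 0.22). They were lower for Atf4, Elk1 and Bcl2l11 (-0.97 to -0.01). The Bcl2l11 probe at -0.97 was dim and well above background on only 2 of the 4 arrays. It had 1.83 and 1.93 in 20-fold iodine and 2.63 and 3.07 in control. The brighter Bcl2l11 probe, well above background on all 4 arrays, had -0.08 ± 0.12 (SE). Jun, the gene for c-Jun and a target of its own protein, was highest. It had 11.00 and 10.83 in 20-fold iodine and 10.56 and 10.80 in control, a difference of 0.24 ± 0.12 (SE), or 0.12 without control replicate 2. Atf3, a stress-induced factor that DLK turns on after axon injury, was lowest at -0.53 ± 0.41. Its log2 signals were 3.05 and 3.13 in iodine and 3.04 and 4.19 in control, so the value rests on control replicate 3 and was 0.05 without that array.

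**Figure D4:**
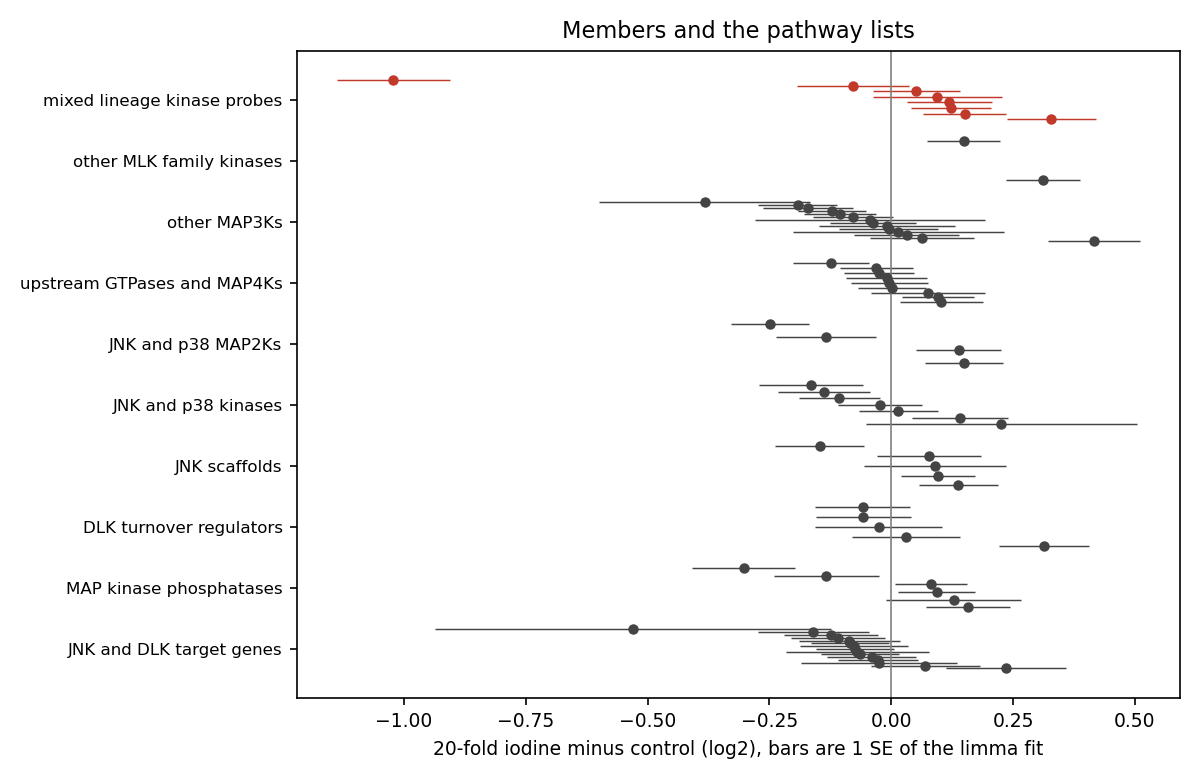
Differences between 20-fold iodine and control (log2, points, with 1 SE of the limma fit as bars) for the 8 member probes in red and for 67 genes of 9 pathway lists in grey, 1 row per list. Pathway genes are drawn by their brightest kept probe only and run from -0.53 for Atf3 to 0.42 for Map3k15. Their other probes, not drawn, run from -0.97 for Bcl2l11 to 0.50 for Mapk14. That Bcl2l11 probe was well above background on only 2 of the 4 arrays.

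Of the 16792 other genes, those whose 4 array values most resembled Map3k10's brightest probe were found by Euclidean distance after each gene was centred on its own mean. The measure uses 4 arrays and the same contrast, so it only describes likeness. Dus4l, a dihydrouridine synthase gene, was nearest at a distance of 0.17, with 5.85 and 6.04 in 20-fold iodine and 6.80 and 6.85 in control. Pot1b, Stk32c and Irs4 followed at 0.20, 0.21 and 0.21. Pot1b and Irs4 were not well above background on either iodine array.

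The signs of the 3 Map3k10 probes held in every setting run, while the sizes of the smaller differences moved. Leaving out each array in turn, A_52_P301591 ranged from -1.14 to -0.90, A_66_P103533 from 0.26 to 0.39 and A_55_P2793877 from 0.08 to 0.16. A group then keeps only 1 array, and since the groups did not overlap at these probes, no sign could change. The replicate block leaves the differences the same, and keeping outlier spots touches these probes only through the scaling. The signs were therefore open to change only under the other background correction and scaling settings. Over the other 7 settings A_52_P301591 ranged from -1.11 to -0.93 and moved by more than its replicate spread in 0 of them. A_66_P103533 ranged from 0.24 to 0.34 and moved by more than its replicate spread in 2 of the 7. For A_55_P2793877 the range was 0.03 to 0.12, with such a move in 3 of the 7.

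**Figure D5:**
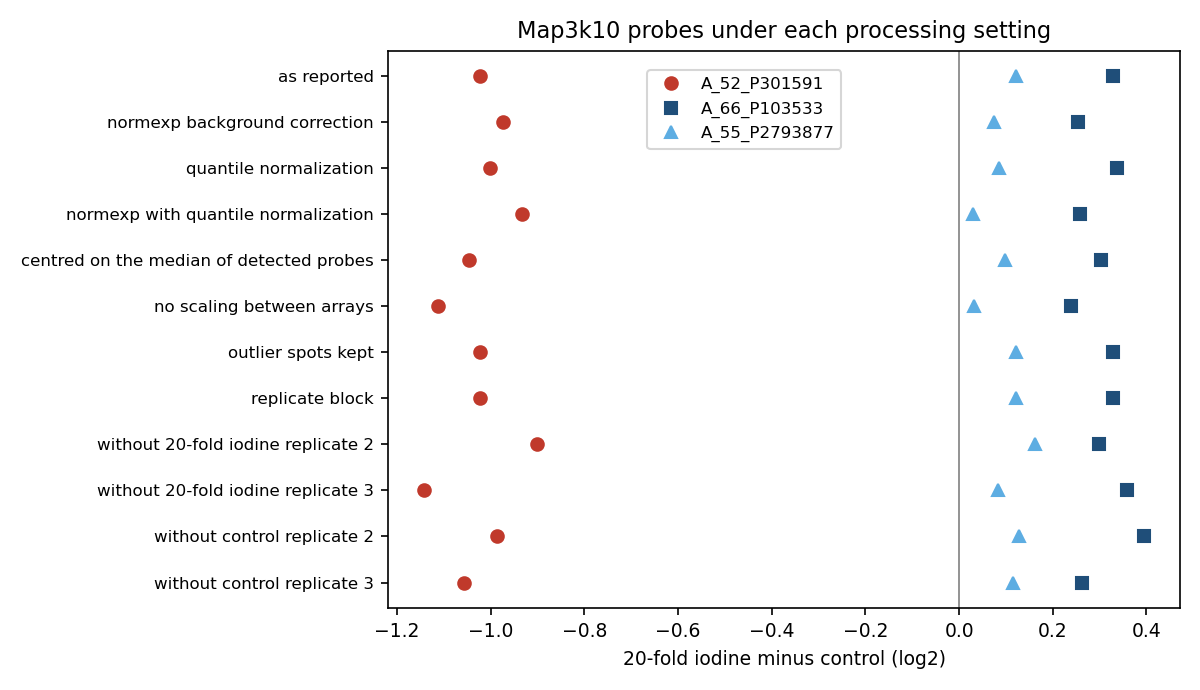
Difference between 20-fold iodine and control (log2) of the 3 Map3k10 probes, as reported and under each other setting, 1 row per setting. A_52_P301591 stays between -1.14 and -0.90 and the other probes stay above 0 in every row. Leaving out an array, the replicate block and keeping outlier spots could not change a sign.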

How the data were processed

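The authors deposited the scanner output of 4 Agilent 1-colour arrays, written by version 12.1.1.1 of Agilent Feature Extraction. The intensity they deposited is background-subtracted, detrended within the array and not normalized between arrays, per the file headers. The flags and spot errors used are also the authors' deposited columns.

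Signals were put on the log2 scale, spots of a probe were averaged without outlier spots, and the 75th percentile of an array's non-control probes was taken off, with the mean percentile added back. The 38228 probes with a value on every array and a detection flag (well above background) on 2 or more were kept. Transcript accessions were matched to the GRCm38.p6 RefSeq annotation, which named 32994 of 56605 probes (58.3%). Probes with other accessions stayed unnamed. Coordinates of probes and genes are left out because the arrays were designed on another build. Those printed belong to the RefSeq promoter windows, and overlaps and neighbours of genes come from that annotation.

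The fit was limma 3.58.1 (lmFit, eBayes, two-sided) in R 4.3.3, tested on simulated data. Plots used matplotlib 3.10.9. All 4 arrays entered, without a block. Precision is limited by 2 arrays per group. The members and lists were chosen with earlier results of these data known. Named genes were all member probes, every gene of lists of up to 7 genes, the highest and lowest gene and a few fixed genes of longer lists, and the 4 genes nearest in pattern to the widest-ranging member. Chromosomal neighbours were added by position.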

Additional observations from a re-analysis of the deposited data

How the results depend on the processing

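The alternatives were normexp background correction (offset 50, on the median spot signal), quantile normalization, both together, centring on the median of detected probes, no scaling, outlier spots kept, the replicate block and each array left out; for the counts also no filter, a stricter filter, an intensity trend with robust variances and the mean of a gene's probes. A slide block could not be fitted on 1 slide. The cause of the shifts below was not tested. With normexp the differences were 0.25 for Map3k10 A_66_P103533, 0.075 for A_55_P2793877 and 0.094 for Map3k11. With normexp and quantile normalization A_55_P2793877 had 0.029 and Map3k11 0.085. Without scaling they were 0.24 for A_66_P103533, 0.032 for A_55_P2793877, 0.060 for Map3k11, -0.039 for Map3k12 and 0.029 for Map3k13. The sign of Map3k12 thus changed without scaling, and it also changed with normexp (-0.0033). That of Map3k9 A_51_P300867 changed with normexp and quantile normalization (-0.0085). Leaving out arrays gave -0.20 to 0.05 for Map3k9 A_55_P2850405, -0.05 to 0.24 for A_51_P300867, 0.10 to 0.20 for Map3k11, -0.01 to 0.11 for Map3k12 and 0.06 to 0.18 for Map3k13. Probes past limma's adjusted p were 25 with normexp and 53 with the intensity trend, against 0 as reported and in the other settings, and genes were 0 in every setting run. With the replicate block the member differences were the same by construction (-1.02 for A_52_P301591), 0 probes passed, and the unadjusted p lay under 0.05 at 3031. The labels do not say what the numbers share, and same-numbered deviations correlated at -0.02 over genes.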

Other observations

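Of the 8 genes nearest to Map3k10 on chromosome 7, chosen by position, 5 had a kept probe, and each is given by its brightest. Zfp607b, a zinc finger gene, had log2 signals of 7.09 and 6.87 in 20-fold iodine and 6.95 and 6.98 in control, a difference of 0.02 ± 0.10 (SE, n = 2 per group). Ttc9b had 10.15 and 10.33 in 20-fold iodine and 10.28 and 10.06 in control, a difference of 0.07 ± 0.12. Akt2, a kinase gene of insulin signalling, had 10.49 and 10.41 in iodine and 10.33 and 10.62 in control, a difference of -0.03 ± 0.13. Zfp60, another zinc finger gene, had 7.95 and 7.90 in iodine and 8.03 and 8.10 in control, lower without overlap, with a difference of -0.14 ± 0.08. 2310022A10Rik had 9.17 and 9.05 in iodine and 9.23 and 9.16 in control, a difference of -0.09 ± 0.08. The groups overlapped at 4 of the 5 neighbours, Zfp60 being the exception, and 39.9% of all genes did not overlap.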
